A study of Homo sapiens with 11 samples.

Results

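The 3 human GRAMD1 genes, GRAMD1A, GRAMD1B and GRAMD1C, were examined in peak lists from chromatin immunoprecipitation followed by sequencing (ChIP-seq). All peaks were taken whose summit, the base of highest signal, lay within the gene span or 50 kb to either side, for 3 of 20033 protein-coding genes. The family was chosen because GRAMD1B holds the MYRF peak of best joint rank in CFPAC1 and HPAF2, so its MYRF values are given as a description without a test. Each of 5 groups held 2 libraries: MYRF in the original CFPAC1 line, MYRF in the original HPAF2 line, FOS in a CFPAC1 clone infected with lentiCRISPRv2, H3K27ac in such a control clone, and H3K27ac in a clone that carried the same vector with wild-type Cas9 and a guide RNA against MYRF. All cells came from human pancreatic ductal adenocarcinoma lines, with CFPAC1 grown in IMDM and HPAF2 in RPMI. Each genotype was a single labelled clone, so loss of MYRF, clonal differences in the DNA and other differences between clones cannot be told apart. A list of MYRF peaks from the knockout clone was not used here, so absence of MYRF protein could not be checked. Whether the replicates grew as separate cultures is not stated, and p-values may therefore measure technical spread alone. The peaks at the edge of the rule were an H3K27ac peak of knockout replicate 1 (fold 3.90) 42.3 kb from GRAMD1A, the farthest kept, and a FOS peak of replicate 1 (fold 6.63) 58.4 kb from GRAMD1C, the nearest left out.

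The lists held 3702 to 4743 peaks for MYRF, 29087 and 36349 for FOS and 107586 to 116466 for H3K27ac. They carry no read counts, so depth is unknown. H3K27ac peaks covered 100.5 and 95.2 Mb of the genome in the control libraries and 87.9 and 92.9 Mb in the knockout libraries. All 6 of 6 epithelial genes checked (KRT7, KRT8, KRT18, KRT19, EPCAM and CDH1) had H3K27ac within 1 kb of their span in all 4 H3K27ac libraries.

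GRAMD1 proteins, also called Asters, are anchored in the membrane of the endoplasmic reticulum (ER) and gather at its contacts with the plasma membrane. Their GRAM domain recognises the plasma membrane when it holds accessible cholesterol, and a sterol-binding domain carries that cholesterol to the ER, where sterol content controls cholesterol synthesis. MYRF is itself made as an ER membrane protein, and its DNA-binding part leaves for the nucleus once the protein has cut itself. FOS forms the transcription factor AP-1 together with JUN proteins, and H3K27ac, acetylation of lysine 27 of histone H3, marks active promoters and enhancers.

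On GRCh38, GRAMD1B spans 269346 bp of chromosome 11 (123358422 to 123627767), GRAMD1C 118983 bp of chromosome 3 (113828192 to 113947174) and GRAMD1A 31743 bp of chromosome 19 (34994727 to 35026469). Exons and introns were not resolved here. The promoters from the RefSeq tables (GRCh38.p14) are shown because H3K27ac peaks covered or adjoined them, and each runs from 250 bases before to 50 after a transcription start. The first pair are the starts of GRAMD1A (chr19:34994477-34994776 and chr19:35000073-35000372, plus strand), the next is GRAMD1C (chr3:113897250-113897549, plus strand), and the last is LOC124902776, a long non-coding RNA gene inside GRAMD1B (chr11:123431165-123431464, minus strand). Capitals mark any match, on either strand, to CTGGCAC or CTGGTAC, short cores reported for MYRF, or to TGANTCA, the AP-1 site.
GRAMD1A, first start: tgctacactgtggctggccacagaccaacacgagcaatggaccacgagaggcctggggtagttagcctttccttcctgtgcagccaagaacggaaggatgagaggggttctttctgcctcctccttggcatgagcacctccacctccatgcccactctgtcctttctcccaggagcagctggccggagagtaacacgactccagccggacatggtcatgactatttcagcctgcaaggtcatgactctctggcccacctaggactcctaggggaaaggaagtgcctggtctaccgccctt
GRAMD1A, second start: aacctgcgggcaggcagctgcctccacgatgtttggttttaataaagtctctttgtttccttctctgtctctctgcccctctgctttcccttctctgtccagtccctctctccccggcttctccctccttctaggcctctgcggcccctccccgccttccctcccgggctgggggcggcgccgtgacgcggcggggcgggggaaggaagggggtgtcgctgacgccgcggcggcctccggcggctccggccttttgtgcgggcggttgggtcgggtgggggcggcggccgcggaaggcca
GRAMD1C: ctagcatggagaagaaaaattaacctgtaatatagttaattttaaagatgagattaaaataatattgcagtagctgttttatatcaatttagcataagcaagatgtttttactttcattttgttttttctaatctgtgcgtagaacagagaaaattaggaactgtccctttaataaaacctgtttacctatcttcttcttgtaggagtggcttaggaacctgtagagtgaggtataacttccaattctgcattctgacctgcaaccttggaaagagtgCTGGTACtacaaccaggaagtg
LOC124902776: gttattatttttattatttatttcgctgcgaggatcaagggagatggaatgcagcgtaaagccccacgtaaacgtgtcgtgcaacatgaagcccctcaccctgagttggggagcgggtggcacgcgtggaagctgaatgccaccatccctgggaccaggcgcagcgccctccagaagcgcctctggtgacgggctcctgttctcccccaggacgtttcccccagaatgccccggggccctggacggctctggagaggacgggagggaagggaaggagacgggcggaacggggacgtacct

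Of these windows, the GRAMD1C one alone held a match, CTGGTAC at position 279 of the printed sequence. Among all 35116 promoters of the same length in the table, 7.21% held CTGGCAC or CTGGTAC and 7.71% held TGANTCA. No MYRF peak of any library reached these windows. A start of GRAMD1B itself was not found in the promoter table, so its promoter was not examined. The GRAMD1C start is internal to the gene span, so the 5' end of that span was not covered by a window either. GC content was 57.7% and 69.0% at the GRAMD1A starts, 34.0% at the GRAMD1C start and 60.7% at the LOC124902776 start, against a median of 58.7% over the table.

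In GRAMD1B, whose product Aster-B moves cholesterol taken up from lipoproteins, MYRF occupied a single dominant position in both cell lines. Fold enrichment over the peak caller's local background, a value of the authors, was 50.7 and 51.2 in CFPAC1 replicates 1 and 2 and 93.2 and 100.014 in HPAF2 replicates 1 and 2. Within its list the peak ranked 8 of 4743 and 9 of 4041 in CFPAC1, and 1 in both HPAF2 lists. Fold values are scaled to each library's own background, so only ranks within a list are compared. The 4 summits fell within 23 bp of each other, between positions 123588252 and 123588275. This site lay inside the gene, 229838 bp from the lower-coordinate end and 39507 bp from the other end.

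**Figure D1:**
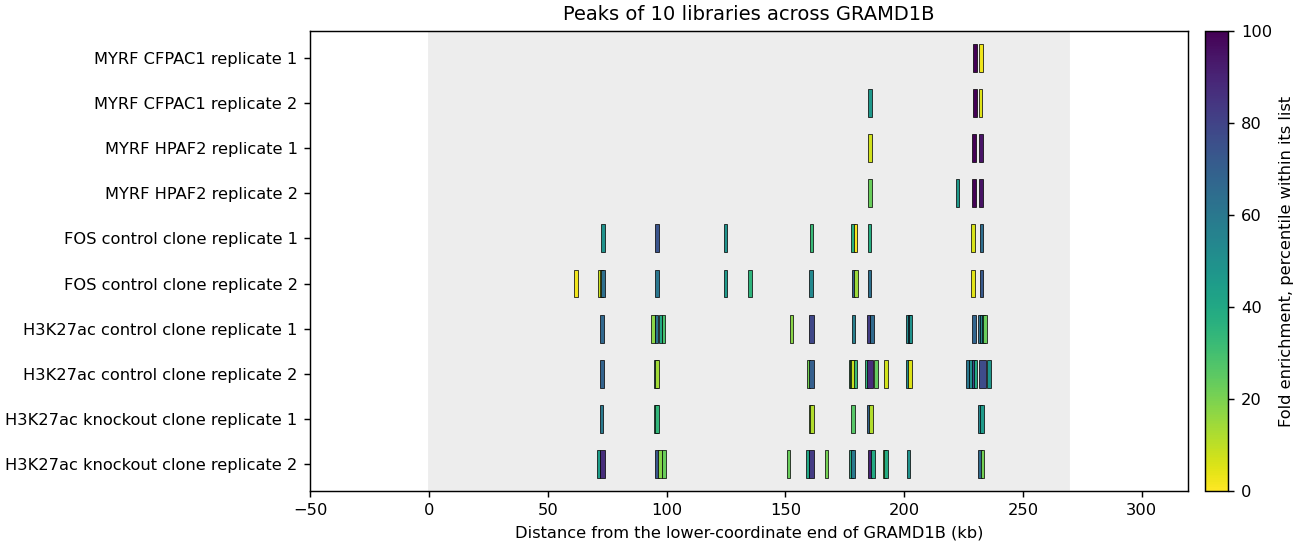
Peaks of the 10 libraries (rows) along GRAMD1B, with distance in kb from its lower-coordinate end on the x axis, the gene span shaded and fold enrichment coloured by percentile within each list. The darkest MYRF boxes stand at the dominant site, 229838 bp from that end, in all 4 MYRF libraries, and no box lies in the 50 kb flanks; short peaks are widened to be visible.

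A weaker MYRF site stood 2504 bp towards the upper-coordinate end of GRAMD1B and ranked high in HPAF2 and low in CFPAC1, a difference between lines that was not tested. Its fold enrichment was 3.12 and 3.37 in CFPAC1, at percentiles 2.70 and 4.73 of those lists, and 16.4 and 17.0 in HPAF2, at percentile 94.9 in each. The summits of this flanking site spread over 227 bp. A further MYRF peak, with summits from 123543990 to 123544057, was present in both HPAF2 libraries (3.51 and 4.27) and in CFPAC1 replicate 2 (5.15), but not in the list of CFPAC1 replicate 1. The last MYRF peak, at 123580794 to 123581021, appeared in HPAF2 replicate 2 alone (5.23). Reproducible peaks, those overlapping between both replicates by at least 1 bp, thus numbered 2 for CFPAC1 and 3 for HPAF2. The CFPAC1 count was 1 when summits had to lie within 200 bp, because the flanking site dropped out.

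FOS sat at 8 reproducible sites in GRAMD1B, out of 9 and 13 peaks in its replicates, and its strongest sites were not at the dominant MYRF peak. FOS enrichment beside that peak was 3.26 and 3.10, at percentiles 5.97 and 4.40, with summits 809 and 912 bp from the mean CFPAC1 MYRF summit. At the flanking MYRF site FOS reached 6.33 and 7.23, percentiles 64.8 and 72.5, with summits 212 and 110 bp from the mean HPAF2 MYRF summit. The site near 123544057 also held FOS (4.79 and 6.31) with summits 89 and 82 bp from the HPAF2 MYRF summit. Of the sites without MYRF, FOS was highest in replicate 1 at 123454180 to 123454712 (7.29 and 6.06) and in replicate 2 at 123536691 to 123538206 (4.72 and 7.04). Around the latter, H3K27ac peaks covered 1449 and 1379 bp within 1 kb in the control and 254 and 692 bp in the knockout libraries, without overlap (two-sided exact permutation p = 0.333). Over all 19844 reproducible FOS sites acetylated within 1 kb in both control libraries, 21.7% had this ordering. At the other acetylated FOS sites of GRAMD1B without MYRF the clones overlapped, with 1677 and 1661 bp in the control against 881 and 1724 bp in the knockout around 123431585, 1200 and 543 against 493 and 1399 bp around 123454367, and 1881 and 1795 against 851 and 1828 bp around 123519298. The MYRF lists come from the original lines and the FOS lists from a clone, so differences between the targets and between the cell sources cannot be told apart.

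**Figure D2:**
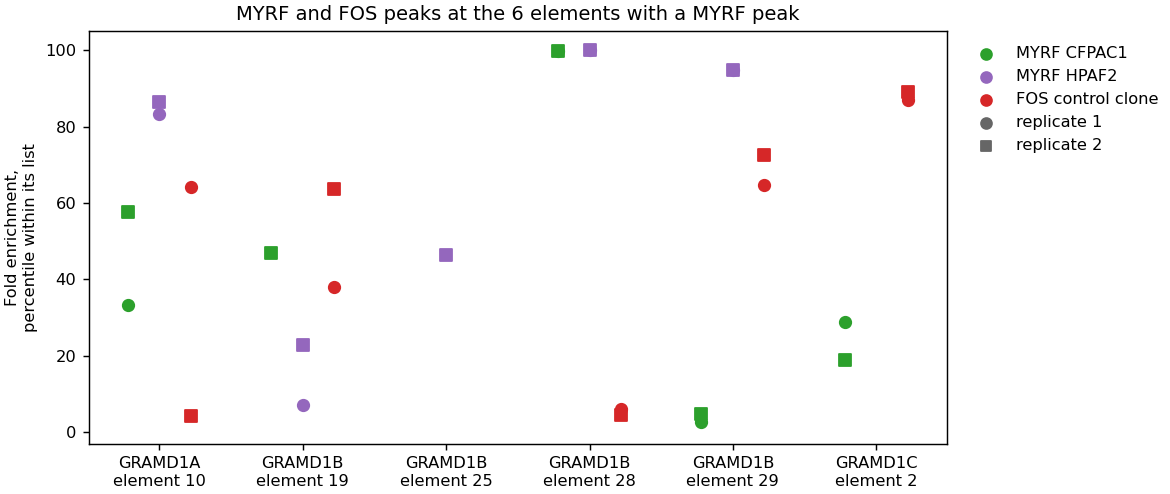
Percentile within its own list (y axis) of the strongest MYRF or FOS peak in each library, for the 6 merged elements of the GRAMD1 genes with a MYRF peak (x axis); circles are replicate 1 and squares replicate 2. Element 28 of GRAMD1B, the dominant site, has MYRF at 99.8 or higher and FOS at 5.97 or lower, while element 29 beside it has MYRF at 94.9 in HPAF2 and at 4.73 or lower in CFPAC1.

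H3K27ac at the dominant MYRF site was recorded in both control libraries and in neither knockout library. The control peaks ran from 123587353 to 123588080 in replicate 1 (fold 7.23) and from 123587108 to 123588088 in replicate 2 (fold 9.90), at percentiles 68.0 and 78.2 of their lists. Control replicate 2 had a further peak on the other side of the MYRF summit, at 123588296 to 123588750 (fold 4.72). The first 2 control peaks ended 180 and 172 bp below the MYRF summit and overlapped the weak reproducible FOS peak at 123587190 to 123587539. Within 1 kb of the mean FOS summit, H3K27ac covered 728 and 1505 bp in the control and 0 and 0 bp in the knockout libraries. Within 1 kb on either side of the CFPAC1 MYRF summit, H3K27ac peaks covered 728 and 1284 bp in the control libraries and 0 and 0 bp in the knockout libraries. The groups did not overlap, and the two-sided exact permutation p was 0.333, the smallest that 2 against 2 libraries allow. Of 2392 reproducible CFPAC1 MYRF sites with H3K27ac within 1 kb in both control libraries, 21.2% had less covered length in both knockout libraries and 22 (0.920%) had none in either.

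**Figure D3:**
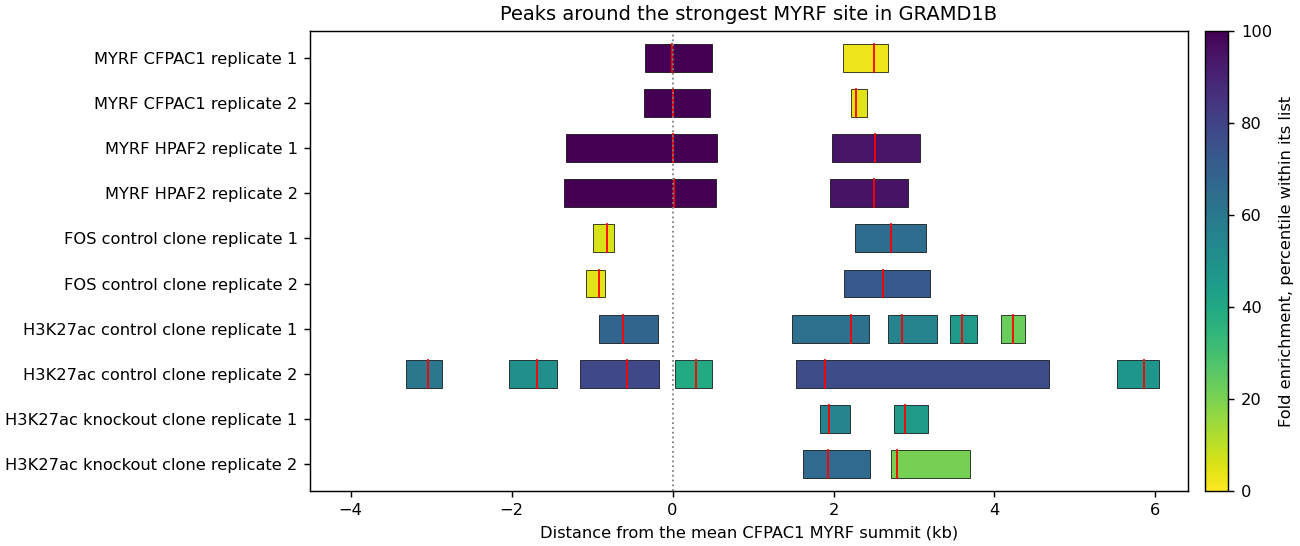
Peaks of the 10 libraries (rows) within a few kb of the dominant MYRF site, with distance in kb from the mean CFPAC1 MYRF summit on the x axis, summits as red lines and fill for the percentile within each list. Both control libraries have an H3K27ac peak ending 180 and 172 bp below the MYRF summit, the knockout libraries have none there, and all 4 have peaks around the flanking site.

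Merging the peaks of the 4 H3K27ac libraries gave 134465 regions, of which 3.51% were lost (in both control and neither knockout library) and 1.70% gained (the reverse). GRAMD1B held 27 of these regions, with 6 in all 4 libraries, 2 lost, 0 gained and 19 in other mixtures. Of the 68770 regions in both control libraries, 6.87% were lost. The lost region at the MYRF site was set beside regions of like strength, those whose lower control percentile lay within 5 points of its own. Of 7611 such regions 16 were lost (0.210%), and of 5353 that also had 0.5 to 2 times its width, 13 were lost (0.243%). Of 2600 control regions with a reproducible CFPAC1 MYRF peak 27 were lost (1.04%), and among the 228 of these with like strength the GRAMD1B region was the 1 lost (0.439%). Each of these counts of lost regions includes the GRAMD1B region itself, on which the sets of like strength and width were centred. The other lost region, at 123560577 to 123561188, was at percentile 70.9 in control replicate 1 and 5.46 in replicate 2. The count of lost regions was 9 without control replicate 1 and 4 without control replicate 2, and the count of gained regions was 5 without knockout replicate 1. With a library left out, its group was judged on the remaining library alone, a looser rule. A region in both control and neither knockout library then stays lost by construction, so those settings could not test the region at the MYRF site. That region was also lost with a -log10 q of at least 10.

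The flanking MYRF site kept H3K27ac in both clones. The region at 123589748 to 123592934, which holds the flanking MYRF peaks and a FOS peak, was present in all 4 H3K27ac libraries. Around its CFPAC1 MYRF summit, H3K27ac covered 1559 and 1858 bp in the control and 804 and 1519 bp in the knockout libraries (two-sided exact permutation p = 0.333). Around the HPAF2 summit of the same site it covered 1596 and 1971 bp in the control and 804 and 1632 bp in the knockout libraries, and the clones overlapped (p = 0.667 by the same exact test), so whether they were apart depended on the summit used. In knockout replicate 2, which had 18 peaks in GRAMD1B, no H3K27ac peak lay between this region and a peak ending 27854 bp below the dominant MYRF summit.

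Acetylation over GRAMD1B as a whole did not separate the clones, and the knockout libraries differed from each other. H3K27ac peaks covered 14022 and 17237 bp in control replicates 1 and 2, and 4520 and 14386 bp in knockout replicates 1 and 2, so the groups overlapped. The difference of 6176.5 bp (a change of -39.5% from control to knockout, two-sided exact permutation p = 0.667) was 1243.5 bp without knockout replicate 1 and 11109.5 bp without knockout replicate 2. With a -log10 q of at least 10 it was 6247 bp and the groups no longer overlapped (p = 0.333 by the same exact test). Knockout replicate 1 also had the least H3K27ac over the genome, and the part of this in the GRAMD1B value was not tested. The median change over 18004 genes with any H3K27ac in the same kind of window was -4.11%, and 3.90% of them had a more negative change than GRAMD1B.

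All 30 elements, formed by merging overlapping peaks of the 10 lists, lay inside GRAMD1B, the first beginning 61744 bp from the lower-coordinate end and the last ending 33461 bp from the other. The nearest peak beyond the 50 kb flanks was a FOS peak 96.6 kb from the gene (fold 4.04). SCN3B, a sodium channel subunit gene in the other flank whose span begins 1421 bp from GRAMD1B, held no peak of any library. H3K27ac marked 26 elements, 6 of them in all 4 libraries, and each of these 6 also held FOS in both libraries. They lay at 123430206 to 123432308, 123453640 to 123455038, 123518417 to 123520469, 123536351 to 123538361, 123542914 to 123545568 and 123589748 to 123592934. The first of them covers the whole LOC124902776 promoter window in all 4 H3K27ac libraries, and FOS peaks covered 242 and 216 of its 300 bases. The 5th and 6th also carry MYRF and the 6th alone had a peak in all 10 libraries. A FOS site at 123483047 to 123483462 (5.35 and 5.11) had no H3K27ac in any library.

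The remaining elements of GRAMD1B were weaker or irregular. Beside the dominant site at 123586915 to 123588816 and the lost region above, 1 element (123559592 to 123560492) had H3K27ac in all but knockout replicate 1. Elements at 123455501 to 123455922 and 123457056 to 123457469 were shared by control replicate 1 and knockout replicate 2. Those at 123535747 to 123536216 and 123550563 to 123550791 were shared by both second replicates. The other 16 were found in 1 library each. Of these, 6 came from control replicate 2 (beginning at 123517835, 123542417, 123546452, 123584948, 123586230 and 123593783) and 2 from control replicate 1 (123452632 and 123510904). Another 5 came from knockout replicate 2 (123429548, 123509593, 123517491, 123525049 and 123549949), 2 from FOS replicate 2 (123420166 and 123493272) and 1 from HPAF2 MYRF replicate 2 (123580794).

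GRAMD1A, which encodes Aster-A, also had a MYRF peak in all 4 MYRF libraries, at a lower rank. Its fold enrichment was 4.52 and 5.65 in CFPAC1, percentiles 33.2 and 57.5, and 8.92 and 9.90 in HPAF2, percentiles 83.3 and 86.4. The summits fell within 91 bp, and their CFPAC1 mean lay 11821 bp into the gene from the lower-coordinate end. FOS overlapped this site with 6.31 in replicate 1 and 3.06 in replicate 2, which stood at percentiles 64.2 and 4.11 of their lists and so differed widely in rank. The other reproducible FOS site of GRAMD1A, at 35064028 to 35064331 (4.59 and 4.50), lay within the span of HPN, a serine protease gene next to it. With a -log10 q of at least 10, neither FOS site nor the CFPAC1 MYRF site of GRAMD1A was reproducible, while the HPAF2 MYRF site was.

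At the GRAMD1A MYRF site the summit base fell in a gap between H3K27ac peaks in all 4 H3K27ac libraries. The lower peak ended 346 and 146 bp from the mean CFPAC1 MYRF summit in the control and 201 and 375 bp in the knockout libraries, and the upper peak began 119 and 151 bp away in the control and 337 and 262 bp in the knockout. Both flanking regions (35005368 to 35006402 and 35006668 to 35007309) were present in every H3K27ac library. At the dominant GRAMD1B site too, neither control library covered the summit, as at 23.3% of the 2392 acetylated CFPAC1 MYRF sites.

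Both transcription starts of GRAMD1A were acetylated in both clones. H3K27ac covered 300, 300, 167 and 300 bases of the first promoter window in control replicates 1 and 2 and knockout replicates 1 and 2, and 206, 196, 185 and 229 bases of the second. The GRAMD1A window held 13 regions, 9 of them in all 4 libraries, 0 lost and 0 gained. Covered length was 9959 and 11374 bp in the control and 7362 and 9309 bp in the knockout libraries, lower in both knockout libraries (a change of -21.9%, two-sided exact permutation p = 0.333). The same ordering was found for 25.0% of the 18004 genes, and the covered length of the genome was lower in both knockout libraries as well. The GRAMD1A difference of 2331 bp was 1357.5 bp without knockout replicate 1 and 1188.5 bp with a -log10 q of at least 10, where the groups overlapped (exact permutation p = 0.667).

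GRAMD1C, the gene of Aster-C, had MYRF in CFPAC1 alone and the strongest FOS sites of the family. The MYRF peak was weak, with fold 4.35 and 4.12 at percentiles 28.9 and 18.8, 2601 bp from the lower-coordinate end of the span, which is the 5' end on the plus strand, and the HPAF2 lists held no peak in the window. A peak missing from a list may lie below its threshold, and the difference between lines was not tested. FOS reached 9.63 and 10.8 at the same place (percentiles 87.0 and 89.2), with summits 11 and 18 bp from the mean MYRF summit. The highest FOS site of the family was at 113867492 to 113868261, with 13.0 and 12.6 (percentiles 94.7 and 92.9), and had no H3K27ac within 1 kb in any library. The other GRAMD1C sites were at 113912683 to 113913215 (6.96 and 7.01) and 113834957 to 113835615 (3.16 and 4.57).

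**Figure D4:**
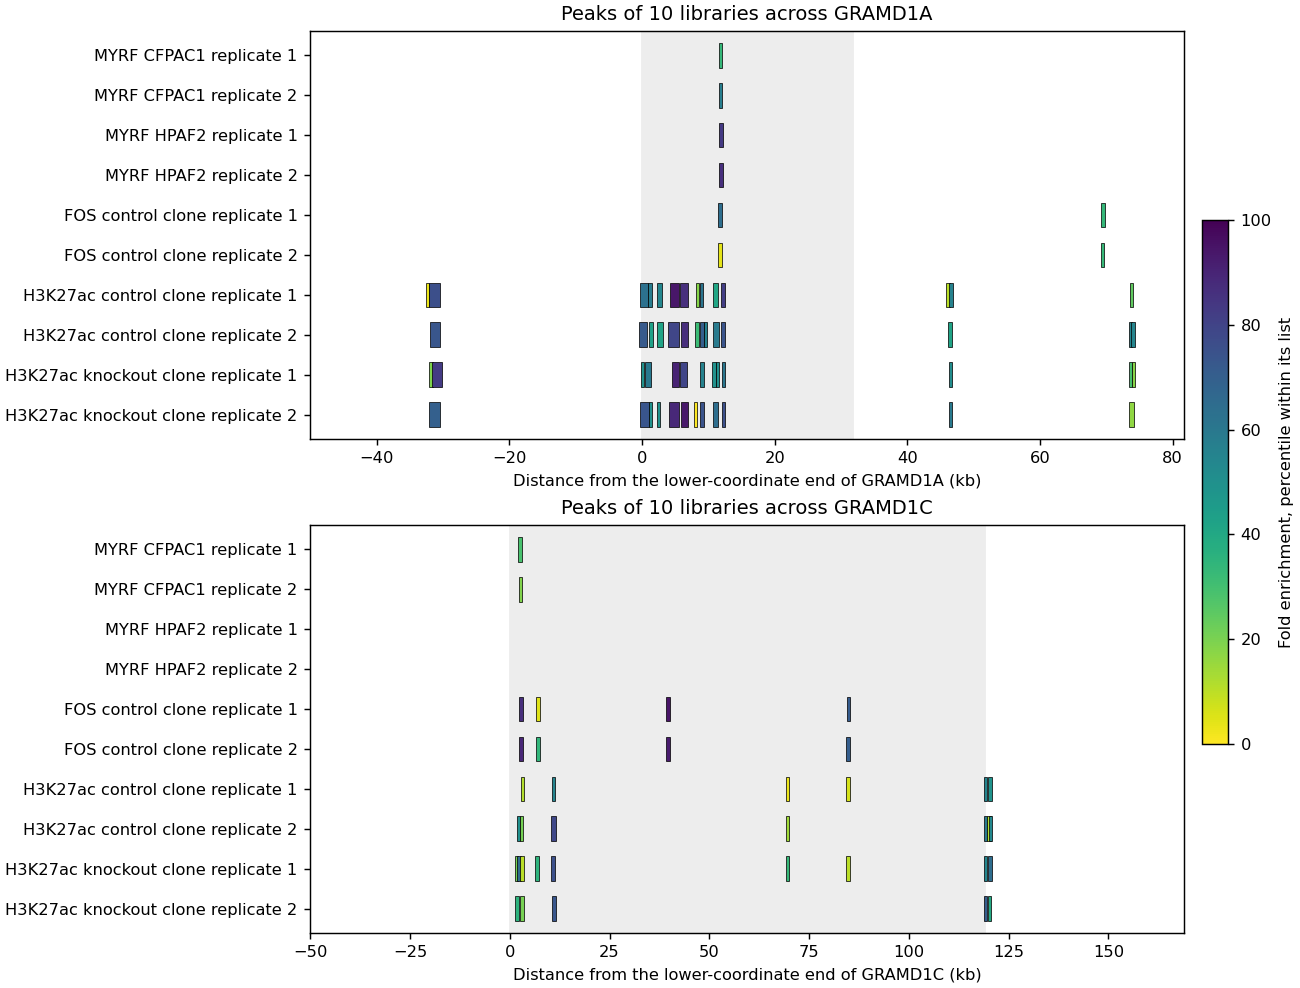
Peaks of the 10 libraries (rows) along GRAMD1A (top) and GRAMD1C (bottom), with distance in kb from the lower-coordinate end on the x axis, the gene span shaded and fill for the percentile within each list. GRAMD1A has 1 MYRF position in all 4 MYRF libraries, and GRAMD1C has 1 in the CFPAC1 libraries and 4 FOS positions; short peaks are widened to be visible.

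H3K27ac at GRAMD1C was sparse and did not separate the clones. The window held 9 regions, of which 4 were in all 4 libraries, 0 lost and 1 gained. Those 4 include the regions at 113947058 to 113947641 and 113948065 to 113949029, whose summits lay past the upper-coordinate end of GRAMD1C. They lie at or near the lower-coordinate end of ZDHHC23, whose span begins 727 bp from GRAMD1C. The gained region (113829721 to 113830102) had peaks at percentiles 20.4 and 35.9 of the knockout lists. It lies just below a region, at 113830121 to 113830640, that control replicate 2 and knockout replicate 1 shared. Next to the transcription start in the promoter table (113897500), which is internal to the gene span, the region at 113897552 to 113898058 was acetylated in all but knockout replicate 2. Covered length was 2668 and 3653 bp in the control and 4196 and 2530 bp in the knockout libraries, and the groups overlapped (6.41% more in the knockout, two-sided exact permutation p = 1). The sign of the GRAMD1C difference depended on the libraries used, with control minus knockout at -202.5 bp over all 4, 290 bp without control replicate 1 and 630.5 bp without knockout replicate 1. Over the gene span alone, H3K27ac covered 1647 and 2576 bp in the control and 2795 and 1446 bp in the knockout libraries. Control minus knockout was then -9 bp.

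**Figure D5:**
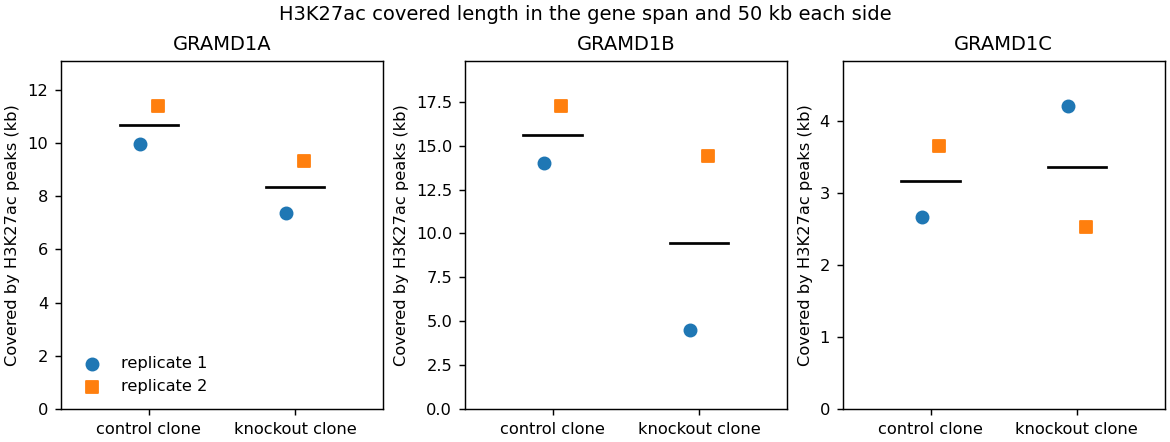
Length covered by H3K27ac peaks (kb, y axis) in the span of each GRAMD1 gene plus 50 kb each side, by clone (x axis), with 1 point per library and a bar at the mean of 2. The groups are apart for GRAMD1A and overlap for GRAMD1B, where knockout replicate 1 stands at 4520 bp, and for GRAMD1C.

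Across the family, 3 of 3 genes had a reproducible CFPAC1 MYRF peak in the window, where 16.6% of all protein-coding genes did. In HPAF2 it was 2 of 3, also against 16.6%, and both lines together 2 of 3 against 9.99%. The family was picked from the MYRF lists, so nothing is read from these counts. All 3 had reproducible FOS, against 67.7% of all genes.

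The genes that work alongside GRAMD1 were read from 2 lists. Of 35 genes for other sterol and lipid transfer proteins and contact-site tethers, 7 had MYRF in CFPAC1, 6 in HPAF2, 2 in both lines and 33 had FOS, where the shares over all genes were 16.6%, 16.6%, 9.99% and 67.7%. The MYRF counts are near or below those shares. The 2 were oxysterol-binding protein relatives. The OSBPL2 peak, past the upper-coordinate end of the gene at 62305982 to 62306590 on chromosome 20, had fold 11.0 and 10.4 in CFPAC1, and 5.79 and 7.95 in the HPAF2 replicates. The OSBPL3 peak, inside the gene at 24821236 to 24821831 on chromosome 7, stood at percentiles 94.9 and 94.2 in CFPAC1 (fold 15.3 and 15.0) and at 34.5 and 9.05 in HPAF2 (fold 4.63 and 3.68). The OSBPL3 site thus ranked high in CFPAC1 and low in HPAF2, the opposite of the flanking GRAMD1B site.

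Of 33 genes of cholesterol synthesis, uptake, storage and efflux, 4 had MYRF in CFPAC1, 7 in HPAF2, 4 in both and 25 had FOS, against the same shares over all genes (16.6%, 16.6%, 9.99% and 67.7%). The genes with MYRF in both lines are described because the naming rule takes them all, and the counts are no result about the list. SCARB1, the receptor that takes cholesterol from high-density lipoprotein, had the highest shared rank of this list, at percentiles 93.2 and 90.4 in CFPAC1 and 70.3 and 83.1 in HPAF2 (chromosome 12, 124745748 to 124746388). This peak lay outside the gene, below its lower-coordinate end at 124776856. CYP51A1, a sterol demethylase, had fold 6.52 and 5.80 in the CFPAC1 replicates, then 4.16 and 6.50 for HPAF2. NR1H3, which encodes the oxysterol receptor LXR alpha, had its strongest peak at separate positions in the 2 lines, with fold 5.02 and 5.23 in CFPAC1 at 47278943 to 47279295 and 4.62 and 3.89 for HPAF2 at 47281376 to 47281681 of chromosome 11. Both positions lie past the upper-coordinate end of NR1H3 (47269033). HPAF2 had 2 reproducible peaks in this window, and whether the weaker 1 shares the CFPAC1 position is not given here. INSIG2, an ER protein that retains the sterol sensor SCAP in the ER, had fold 4.26 and 3.61 in the CFPAC1 replicates, then 3.67 and 6.00 for HPAF2. Its peak too lay outside the gene, below the lower-coordinate end at 118088471.

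H3K27ac covered length was lower for some genes and higher for others in each list. In the transfer list 8 of 34 acetylated genes were lower in both knockout libraries and 3 higher, with a median change of -2.91%, where 25.0% and 9.91% of all genes were lower and higher. In the cholesterol list 9 of 32 were lower and 6 higher, with a median of -6.87%. Each such ordering has an exact permutation p of 0.333. Up to 4 genes per direction whose clones did not overlap are named from each list separately. In the cholesterol list the most negative changes were those of LSS, lanosterol synthase (6461 and 6863 bp in the control, 4128 and 4958 bp in the knockout), CH25H, which makes 25-hydroxycholesterol (-27.2%), SCARB1 (-19.4%) and LIPA, the lysosomal acid lipase (-16.4%). The most positive in that list were ABCG1, a cholesterol efflux pump (4822 and 2701 bp in the control, 11254 and 7510 bp in the knockout), ABCG5 (78.1%), CYP27A1 (64.9%) and INSIG2 (37.1%). These values cover the gene span plus 50 kb each side. CH25H ends at 89207317 and LIPA begins at 89213572 of chromosome 10, so their windows overlap and their decreases are not separate observations. The windows of ABCG5 and ABCG8, both counted as higher, overlap as well. In the transfer list the most negative were VPS13C, a bridge-like lipid carrier (-19.5%), GRAMD2B (-17.8%), GRAMD2A (-14.9%) and NPC1, the lysosomal cholesterol exporter (-12.0%), and the 3 positive ones were OSBPL7 (15.8%), OSBPL2 (11.5%) and OSBPL11 (9.93%).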

How the data were processed

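The authors deposited 1 peak list per library for 10 libraries. An HPAF2 input sample without a list was not analysed here. The tools named, per the submitters' processing notes, are MACS2 2.1.0.20150731, Trimmomatic 0.38, SAMtools and Bowtie2 2.2.6, and the build is GRCh38. The control used for each list is not given in the sources used here. Each deposited peak has a fold enrichment (a ratio to local background), a -log10 p, a -log10 q and a score, and the deposited lists begin at a -log10 q just over 1.30. Peaks below that threshold are missing, so absence from a list is not absence of signal.

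Gene spans came from the RefSeq table for GRCh38.p14, and all 3 symbols matched. Promoter sequences were found for GRAMD1A and GRAMD1C but not for GRAMD1B. Percentiles are ranks of fold enrichment within a list. Overlap of 1 bp joined peaks. Covered length was compared between clones by the exact permutation test over libraries. The members and lists were chosen with earlier results of these data known. The comparisons with regions of like strength or width and with all FOS sites, the presence rule of 25% and the crossed pairing were added after the data were seen. The named list genes are those with reproducible MYRF in both lines (at most 8 per list) and at most 4 per direction with the largest change in covered length among genes whose clones do not overlap. Python 3.11.15, numpy 2.4.6, pandas 2.3.3 and matplotlib 3.10.9 were used. Overlap and coverage code was tested on simulated data against bedtools 2.31.1.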

Additional observations from a re-analysis of the deposited data

How the results depend on the processing

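Of the results recomputed under other settings, 97 comparisons with the reported value kept their direction or stayed within 1.5 times, 18 counts moved further and 2 differences changed sign. The 97 include settings that cannot change a value by construction, among them summit counting and the pairing of replicates, so the number is no measure of stability. A difference counted as kept if its sign held, as for GRAMD1B at 1243.5 bp without knockout replicate 1 against 6176.5 bp. With a -log10 q of at least 10, the GRAMD1B window kept 1 lost region, 1 reproducible CFPAC1 MYRF peak and 1 FOS peak, GRAMD1A kept 0 CFPAC1 MYRF and 0 FOS peaks, and GRAMD1C kept 0 CFPAC1 MYRF peaks and 0 gained regions. Within the gene span alone GRAMD1A had 1 FOS peak, and with summits within 200 bp GRAMD1B had 1 CFPAC1 MYRF peak. Counting summits in place of any overlap leaves the region counts as they are by construction. Leaving out each library in turn gave 2 to 9 lost and 0 to 5 gained regions in GRAMD1B, 0 to 2 lost in GRAMD1A, and 0 to 1 lost and 1 to 2 gained in GRAMD1C. In these settings the reduced group was judged on its remaining library alone, a looser rule than the main one. For FOS in GRAMD1B the 9 and 13 peaks are thus all peaks of the single list left, without the need for overlap between replicates. Covered length, control minus knockout, ranged from 1243.5 to 11109.5 bp in GRAMD1B, from 1357.5 to 3304.5 bp in GRAMD1A and from -1035.5 to 630.5 bp in GRAMD1C, changing sign there without control replicate 1 (290 bp) and without knockout replicate 1 (630.5 bp). With a -log10 q of at least 10 the GRAMD1C difference was -580 bp. The causes were not tested.

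The libraries share replicate numbers but no stated pairing. As a replicate block, the covered length differences stayed at 2331, 6176.5 and -202.5 bp for GRAMD1A, GRAMD1B and GRAMD1C, with exact sign-flip p of 0.5, 0.5 and 1, where 2 pairs allow no less than 0.5. Over 18004 genes the same-numbered deviations correlated at r = -0.33. With the numbers crossed the mean differences cannot change. The exact sign-flip p stayed at 0.5 for GRAMD1A but rose above 0.5 for GRAMD1B. There the crossed pairs differed in sign, with 14022 bp in control replicate 1 and 14386 bp in knockout replicate 2. The sign-flip test again allowed no p below 0.5, so it cannot tell the pairings apart.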

Other observations

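Genes with a pattern like that of GRAMD1B were ranked by the Euclidean distance over the 10 libraries in the highest within-list percentile of any peak in the window. The nearest 5 were PDE9A, a cyclic GMP phosphodiesterase gene (distance 22.9), LOXL4 (23.5), EPB41L4B (25.03), EPHB3, an ephrin receptor gene (26.7), and CBFA2T3 (28.1), where the median over all protein-coding genes was 203.6. The CFPAC1 MYRF percentiles of PDE9A were 99.3 and 99.2, beside 99.9 and 99.8 in GRAMD1B, and its FOS percentiles were 78.1 and 80.2 beside 74.0 and 72.5 in GRAMD1B. Its best H3K27ac percentile in knockout replicate 1 was 88.8, against 69.4 in GRAMD1B. These values share libraries and depend on window length, and they carry no test.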
